A study of Mus musculus with 12 samples.

Results

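Of the 60136 regions formed by merging the deposited binding sites of 5 proteins in P19 cells, 7602 were held by NeuroD2 and by both mutants of a MyoD chimera, and by neither MyoD nor the chimera itself. These NeuroD2-mutant regions were found by pooling the intervals of the 5 lists, joining intervals that shared at least 1 base, and keeping each merged region with an interval of NeuroD2, of MD(ND2bHLH)WC (called WC here) and of MD(ND2bHLH)WCS (called WCS), and with no interval of MyoD or of MD(ND2bHLH) (called the chimera). The regions were chosen by the presence of called sites in the 5 lists, so their presence and their scores are given as a description, without a test. The lists record where a protein was called as bound. They hold no measure of chromatin accessibility, so whether a region was opened by a protein cannot be read from them.

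MyoD and NeuroD2 are basic helix-loop-helix (bHLH) transcription factors, which pair with E proteins such as the products of Tcf3 and Tcf12 and contact short DNA elements called E-boxes through the basic part of the bHLH domain. MyoD directs skeletal muscle formation, and NeuroD2 directs differentiation of neurons. The bases at the centre of an E-box differ in how well each factor recognises them, and MyoD also contacts the homeodomain factors Pbx and Meis through parts of the protein outside the bHLH domain.

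The study used P19, a mouse embryonal carcinoma line that can form neurons, in 12 chromatin immunoprecipitation sequencing libraries of 6 groups. Cells were transduced with MyoD, with NeuroD2, with the chimera (MyoD carrying the bHLH domain of NeuroD2), with WC or with WCS, which are mutants of the chimera whose letters the labels do not explain, or were left untransduced as negative controls. Transduction used 8 µg/ml polybrene, the medium was changed at 24 h, and all groups were moved to a neuronal medium at 48 h. Antibodies 6196 and 6975 against MyoD served for MyoD, the chimera, WC and WCS, and antibodies 1165 and 1240 against NeuroD2 served for NeuroD2, so the antibody and the protein cannot be told apart between NeuroD2 and the mutants. Untransduced cells were precipitated with 1240 and 6975, and no site list of theirs was analysed here. Both libraries of a transduced group point to the same list, so each group has 1 list, the spread between replicates is not known, and no difference below was tested.

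The lists held 24935 sites for MyoD, 14375 for the chimera, 27045 for WC, 22462 for WCS and 31458 for NeuroD2. Each site carries 1 score made by the authors, from just above 5 upward, on a scale that no label or header names. A score is used here only to rank sites within its own list, and a percentile is the place of a score in its own list, with 100 at the top. Read depth is unknown. The MyoD and chimera lists held 0 sites on chromosome X, where NeuroD2 had 570, WC 403 and WCS 362, so any X region of those 3 lists met the rule without being compared with MyoD or the chimera. There were 185 such regions. The same 2 lists also lack the shortest sites, since neither holds a site under 100 bases, whereas the shortest had 53 bases for NeuroD2 and 54 for WC and WCS. Whether the lists were filtered differently is not known, and absence from the MyoD and chimera lists is part of the rule. With all 5 lists limited to autosomes and to sites from the shortest MyoD width up to 2000 bases, 7392 regions met the rule, but this cannot restore sites removed earlier.

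The NeuroD2-mutant regions took in a large part of each of the 3 lists. They held 7737 NeuroD2 sites, or 24.6% of that list (exact Clopper-Pearson 95% interval 24.1 to 25.1%, which covers counting error only). They also held 7665 WC sites, or 28.3% of the WC list, and 7668 WCS sites, or 34.1% of the WCS list. Of the 21556 NeuroD2 regions outside the MyoD and chimera lists, the 7602 are 35.3%, a share that the rule fixes. Another 3542 of them were held by exactly 1 mutant and 10412 by NeuroD2 alone. For comparison, both mutants held 83.9% of the 3097 regions of NeuroD2 and the chimera without MyoD, and the chimera shares its antibodies with the mutants. Of the 14861 regions held by NeuroD2, WC and WCS together, the 7602 are 51.2%. The number depends on list length: with every list shortened to 14375 sites by score there were 3489 such regions, and with the upper 50% of each list there were 4175.

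In the NeuroD2 list the regions scored above the middle of the list, and in the mutants' lists closer to it. The NeuroD2 score ranged from 5.03 to 280.9 with a median of 15.6 (quartiles 9.18 and 28.4), which is a median percentile of 66.5. The WC score ran from 5.04 to an infinite value held by 2 regions, with a median of 12.4 (quartiles 8.37 and 20.5) and a median percentile of 57.5. The WCS score ran from 5.03, also to an infinite value in 2 regions, with a median of 11.0 (quartiles 7.52 and 17.4) and a median percentile of 54.6. The lowest score in each of the 3 lists was also the lowest among these regions, so the regions reach down to the floor of every list. A score under 6 in at least 1 of the 3 lists was found in 1421 regions, or 18.7%, and in all 3 lists in 25 regions.

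**Figure D1:**
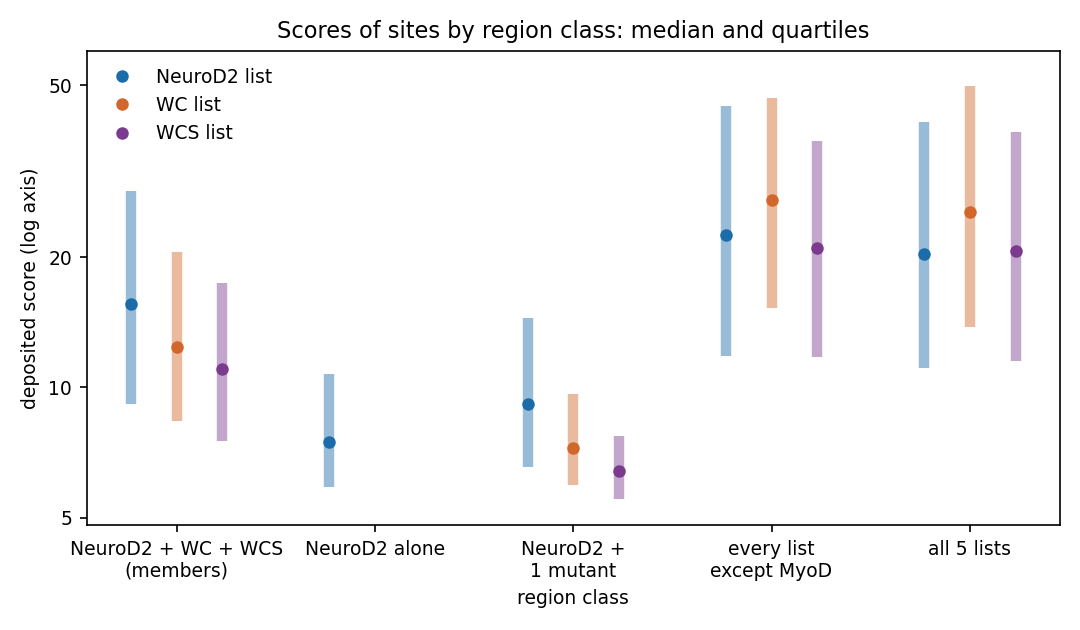
Deposited scores (log axis) of the NeuroD2, WC and WCS sites in 5 classes of merged region; dots are medians and bars run from the lower to the upper quartile, with the highest score of a list taken where a region holds several of its intervals. The NeuroD2-mutant regions, at medians of 15.6, 12.4 and 11.0, lie between regions with exactly 1 mutant and regions that the chimera also holds.

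The neighbouring classes set these scores in order. NeuroD2 regions that no other list held had a median NeuroD2 score of 7.48, and those with exactly 1 mutant had 9.17. Regions of every list except MyoD, 2599 in number, had medians of 22.5 for NeuroD2, 27.2 for WC and 21.0 for WCS. In the 3515 regions of all 5 lists the medians were 20.3, 25.5 and 20.6. The regions that the chimera lacked therefore had lower scores in all 3 lists than those it held, and the gap was wider in the mutants' lists: the median WC percentile was 57.5 without the chimera and 82.6 with it, and the median NeuroD2 percentile 66.5 and 78.0. The difference between classes was not tested, since the classes are made from the same calls.

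Within the NeuroD2 list, the share of regions that both mutants also held rose with the NeuroD2 score, except at infinite scores. The 21556 NeuroD2 regions outside the MyoD and chimera lists were divided into 10 groups of equal size by that score. In the lowest, with a median score of 5.23, both mutants held 11.4%, exactly 1 held 14.7% and none held 74.0%. In group 5, with a median of 8.61, both held 26.6%. The highest group, with a median of 44.4, had both mutants in 77.7%, exactly 1 in 9.37% and none in 12.9%. Its regions with an infinite NeuroD2 score, 29 in number, were all held by NeuroD2 alone. Of the 278 regions in this group that no mutant held, 83 lay on X or in dense windows (100 kb windows with at least 10 sites of any list), against 13.2% of the whole group. Sites held by 1 mutant stayed between 9.37% and 19.4% in all 10 groups, so most of the change was between no mutant and both.

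Seen from the 3 lists together, the stronger a region was, the more often MyoD or the chimera held it too. Regions of NeuroD2, WC and WCS were ordered by the lowest of their 3 percentiles. Below percentile 10, 971 of 1404 regions, or 69.2%, were held by neither MyoD nor the chimera. From percentile 50 to 60 this was 51.2% of 1531 regions. At 95 and above it was 76 of 571 regions, or 13.3% (exact interval 10.6 to 16.4%), while 33.8% were also held by the chimera alone, 0.525% by MyoD alone and 52.4% by both. A window of 100 kb in which any list had at least 10 sites is called dense here. Leaving out chromosome X and dense windows, the top group had 53 of 471 such regions, or 11.3%.

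**Figure D2:**
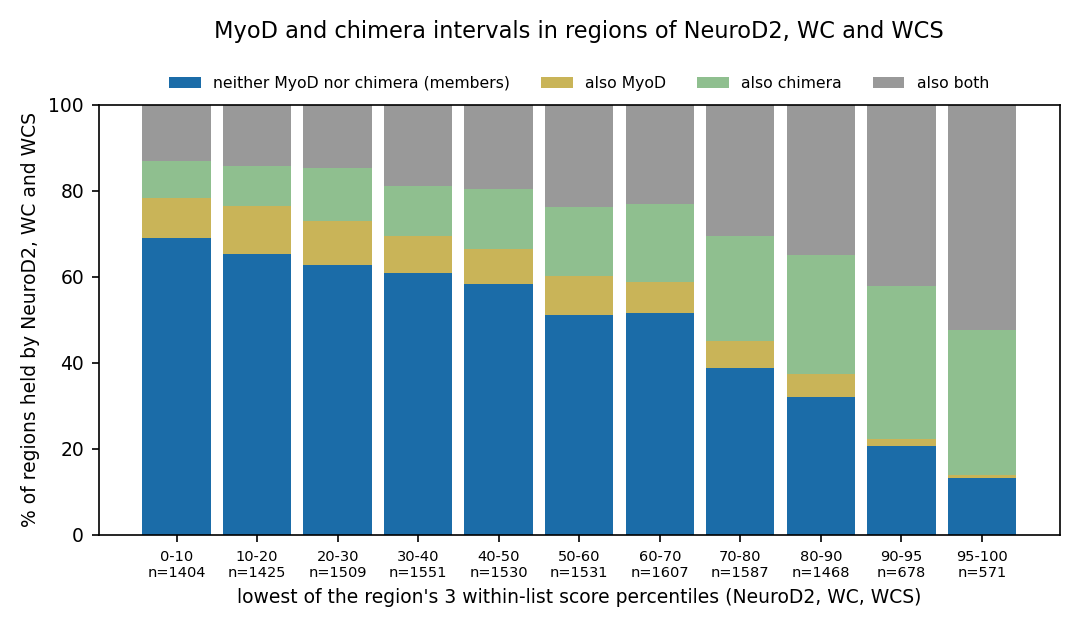
Share of the 14861 regions of NeuroD2, WC and WCS that were also held by MyoD, by the chimera, by both or by neither, against the lowest of the region's 3 within-list percentiles; n is the number of regions in each bar. The share held by neither (blue) goes from 69.2% in the lowest bar to 13.3% in the highest.

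Both mutants ranked the NeuroD2-mutant regions more alike than either ranked them like NeuroD2. Across the 7602 regions Spearman's rho was 0.74 between WC and WCS scores, 0.47 between NeuroD2 and WC and 0.42 between NeuroD2 and WCS. These are correlations across regions of 3 lists, which are not independent replicates, and WC and WCS share both antibodies, which NeuroD2 does not. Without chromosome X and dense windows, in 6744 regions, rho was 0.72, 0.48 and 0.42. In regions of every list except MyoD the same values were 0.78, 0.66 and 0.66, and in regions of all 5 lists 0.79, 0.67 and 0.68. The rank likeness of NeuroD2 and the mutants was thus lower in the regions without the chimera. In the 1145 regions that MyoD but not the chimera also held, rho was 0.73, 0.52 and 0.43. The classes differ in score range too: WC quartiles were 8.37 and 20.5 in the NeuroD2-mutant regions, against 15.3 and 46.7 in every list except MyoD. No test of the difference in rho was made, and the part that score range plays in it was not tested.

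**Figure D3:**
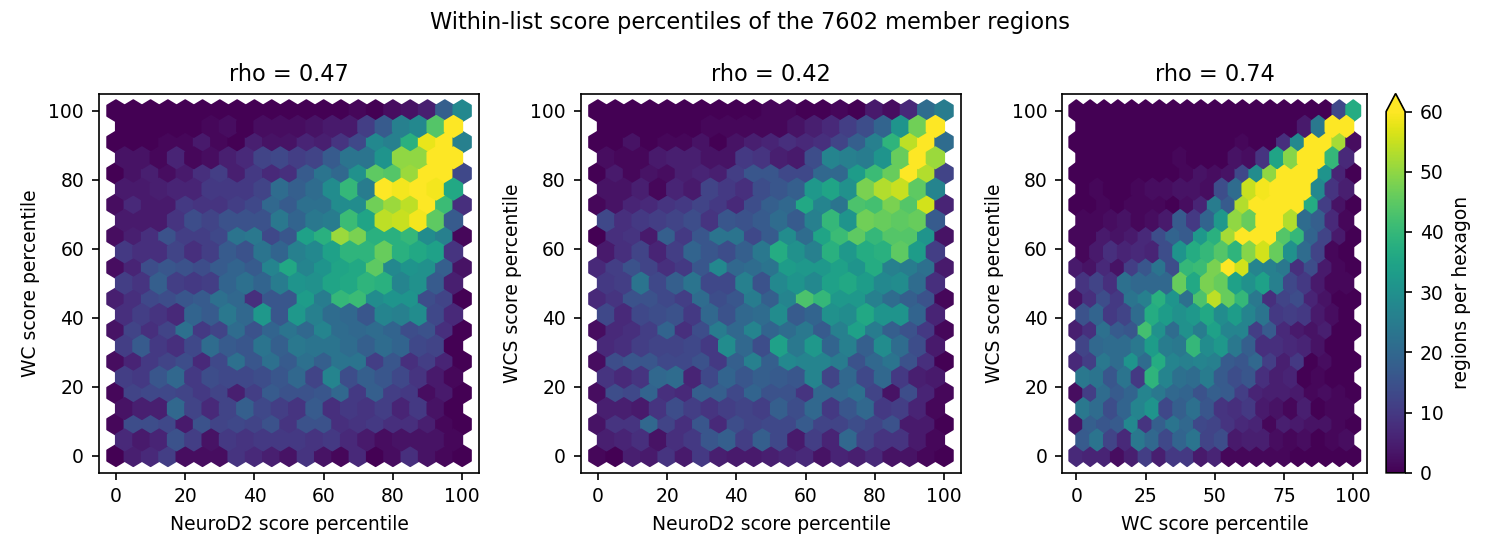
Within-list score percentiles of the 7602 NeuroD2-mutant regions for NeuroD2 against WC, NeuroD2 against WCS and WC against WCS; colour gives the number of regions in each hexagon and rho is Spearman's. WC and WCS lie along the diagonal (0.74), and the NeuroD2 panels have many regions below it, with a high NeuroD2 and a lower mutant percentile.

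The departure from the diagonal was mostly in 1 direction. NeuroD2 had a higher percentile than both mutants in 4095 regions, or 53.9%, and a lower one in 2153, or 28.3%. In regions of every list except MyoD the order was the opposite, with 35.6% above and 41.7% below both mutants. Regions at or above percentile 50 for NeuroD2 and under it for both mutants numbered 1230, or 16.2% of the NeuroD2-mutant regions, against 3.92% of regions of every list except MyoD. The converse, under percentile 50 for NeuroD2 and at or above it for both mutants, held in 8.31% and 8.70%. Percentiles come from lists of unequal length, so they give an order within each list and no change in binding.

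The 3 regions with the largest excess of NeuroD2 over the mutants were near the floor of both mutant lists. Chromosome 11 from 71880604 to 71881441 (all coordinates are mm9, 1-based) scored 72.2 for NeuroD2, 5.25 for WC and 5.03 for WCS. The region on chromosome 2 from 149563607 to 149564037 scored 69.2, 5.04 and 5.52, and chromosome 12 from 68146165 to 68146829 scored 49.6, 5.30 and 5.16. None of the 3 lay on X or in a dense window. The largest excess in the other direction was on chromosome 8 from 20034141 to 20034522, with 5.39 for NeuroD2, 29.2 for WC and 30.8 for WCS. It was followed by chromosome 6 from 3195214 to 3195701, with 5.53, 27.7 and 35.7, and chromosome 8 from 19736599 to 19737650, with 5.21, 22.2 and 26.4. Both chromosome 8 regions lay in dense windows.

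The regions that were highest in all 3 lists came from several chromosomes, X among them. Ordered by the lowest of the 3 percentiles, the first was chromosome 13 from 3371729 to 3373023, with scores of 226.8 for NeuroD2, 237.8 for WC and 231.7 for WCS. It had the highest finite score of all these regions in both mutant lists. The second lay on X from 163217338 to 163217872, with 160.5, 147.1 and 130.6. Chromosome 19 from 4862779 to 4863639 came next, with 190.4, 122.6 and 117.7, and then X from 120325045 to 120325467, with 126.8, 122.2 and 114.2. Neither X region could be compared with MyoD or the chimera.

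The other 6 of the leading 10 were autosomal and outside dense windows. Chromosome 3 held a pair. From 8245634 to 8246725 the scores were 124.9 for NeuroD2, 180.1 for WC and 198.1 for WCS, at percentiles of 99.1, 99.8 and 99.9, and from 5860198 to 5860926 they were 103.3, 158.6 and 190.9, at percentiles of 98.4, 99.6 and 99.8. Chromosome 9 from 123370863 to 123371427 had 113.7, 173.8 and 178.2, at percentiles of 98.8, 99.7 and 99.8. On chromosome 1, from 171846649 to 171847261, the scores were 138.4, 139.7 and 111.7. Chromosome 5 from 149505688 to 149506594 had 124.8, 105.4 and 111.7, and chromosome 6 from 3151275 to 3151711 had 100.8, 106.6 and 95.8. The first of the chromosome 3 pair lay 110 bases from a MyoD or chimera site, and that on chromosome 6 lay 310952 bases from one.

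The NeuroD2-mutant regions held 0 of the 34 infinite scores of the NeuroD2 list. Their 3 highest NeuroD2 scores belonged to regions that were also high in the mutants' lists, at percentiles between 91.5 and 98.9 there. The first, on chromosome 1 from 128493832 to 128494461, was 280.9 for NeuroD2, beside 44.2 for WC and 45.2 for WCS. Chromosome 4 from 47303698 to 47304404 followed with 253.4, 82.3 and 103.7, and then chromosome 6 from 111322858 to 111323696 with 246.03, 85.6 and 67.6. In the mutants' lists, 2 regions had an infinite score for both WC and WCS, chromosome 2 from 181747330 to 181748052 and chromosome 9 from 3006602 to 3007637, and their NeuroD2 scores were 89.8 and 51.2. The chromosome 9 region lay in a dense window. The second-highest finite WC score was on X from 166436773 to 166439236, with 192.5, against 162.6 for WCS and 96.4 for NeuroD2, in a dense window.

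Sites of the 3 proteins lay on top of each other in these regions, which the rule, needing only 1 shared base, did not require. In 7428 of the 7602 regions, or 97.7%, each list had exactly 1 interval, and in 7571 regions the 3 highest-scoring intervals had a common core, with a median width of 290 bases inside a median merged width of 434 bases. The centres of the NeuroD2 and WC sites were a median of 31.5 bases apart, those of NeuroD2 and WCS also 31.5, and those of WC and WCS 19.5. Centres lay within 50 bases of each other in 71.9%, 71.8% and 85.7% of regions. Regions of all 5 lists gave nearly the same medians, 32.5, 31.5 and 20.5 bases, so the offsets were about as small without MyoD and the chimera as with them. Median site width in the regions was 377 bases for NeuroD2, 367 for WC and 337 for WCS.

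The offset between both mutants was smaller in higher-scoring regions, and that between NeuroD2 and the mutants was nearly flat. With the regions divided into 3 equal groups by the lowest percentile, the median NeuroD2 to WC offset was 32.5 bases in the lowest, 31.0 in the middle and 31.5 in the highest group. The WC to WCS offset went from 23 to 20 to 17 bases. Merged width was 377, 421 and 506 bases in the same order, so higher regions were wider.

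The regions lay about as far from sites of MyoD and the chimera as NeuroD2 regions with exactly 1 mutant, and somewhat nearer than regions of NeuroD2 alone. On the autosomes, 7417 regions had a median distance of 14823 bases to the nearest MyoD or chimera site (quartiles 4439 and 41644). The median was 15138 bases for NeuroD2 regions with exactly 1 mutant and 18433 bases for NeuroD2 alone. A site lay within 500 bases of 4.84% of regions, within 1 kb of 8.49%, within 10 kb of 40.9% and within 100 kb of 89.8%. Over all 20999 autosomal NeuroD2 regions outside the MyoD and chimera lists, which include the NeuroD2-mutant regions, the share within 10 kb was 38.2%. It was 39.4% for those with exactly 1 mutant and 35.9% for NeuroD2 alone. Taken singly, the median distance was 21415 bases to a MyoD site and 30472 bases to a chimera site, and the chimera list is the shorter. Regions of every list except MyoD lay at a median of 15055 bases from a MyoD site.

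**Figure D4:**
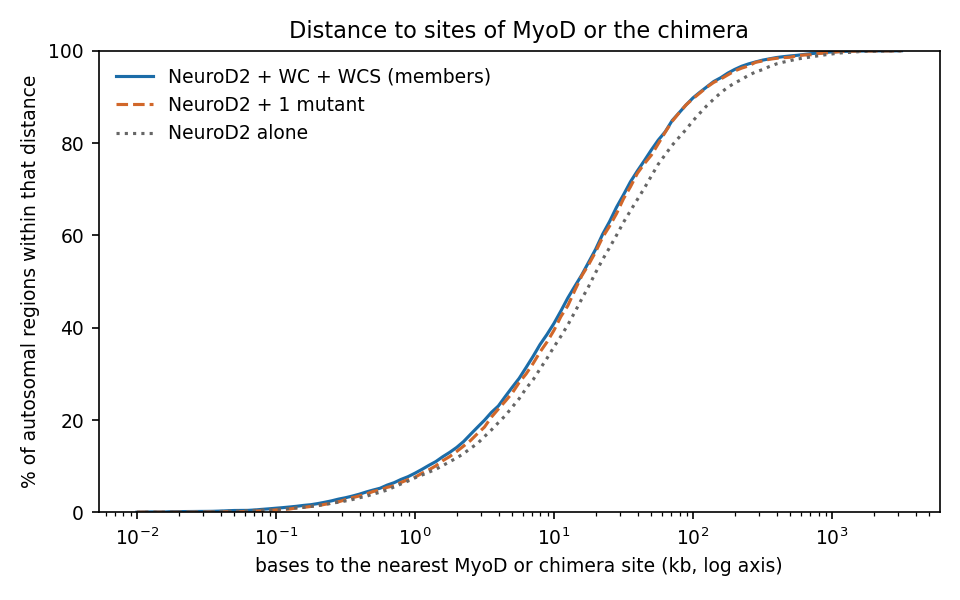
Cumulative share of autosomal regions with a MyoD or chimera site within a given distance (kb, log axis), for the NeuroD2-mutant regions, NeuroD2 regions with exactly 1 mutant and regions of NeuroD2 alone. The first 2 curves nearly coincide, at 40.9% and 39.4% by 10 kb, and the third reaches 35.9% there.

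Median NeuroD2 and WC scores were highest in the regions farthest from such sites, and median WCS scores hardly changed with distance. The median NeuroD2 score was 14.3 in the 359 regions with a MyoD or chimera site within 500 bases, 12.4 from 500 bases to 1 kb, 15.2 from 1 to 10 kb, 16.0 from 10 to 100 kb and 17.1 beyond. Median WC scores over the same steps were 11.1, 11.4, 12.3, 12.6 and 13.0, and median WCS scores stayed between 10.6 and 11.1. At the edge of the rule, 31 regions lay at most 50 bases from a MyoD or chimera site, with median scores of 17.5 for NeuroD2, 11.1 for WC and 11.5 for WCS. Just outside it, 8 regions of NeuroD2, WC and WCS shared 1 to 50 bases with MyoD or chimera intervals, with medians of 21.1, 8.32 and 11.7.

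The 5 nearest regions lay 3 to 11 bases from such a site. On chromosome 7, from 16898131 to 16898605, the region lay 3 bases from a MyoD site with a score of 5.27. The region on chromosome 5 from 112007251 to 112007813 also neighboured a MyoD site, with a score of 5.54, as did that on chromosome 13 from 72953436 to 72953999, with 5.95. Chimera sites with scores of 22.1 and 6.15 were the neighbours of chromosome 6 from 98946081 to 98946477 and of chromosome 15 from 58807140 to 58807679. Of these 5 neighbours 4 were thus near the floor of their list. The 5 regions themselves scored between 6.55 and 57.5 for NeuroD2.

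The regions were spread over all 20 chromosomes in the files. On the autosomes the share of NeuroD2 sites inside them ran from 21.8% on chromosome 13 to 28.1% on chromosome 5, with 28.0% on chromosome 14 and 27.6% on chromosome 8. On X it was 34.6% (197 of 570 sites, exact interval 30.7 to 38.6%) against 24.4% on all autosomes, where MyoD and the chimera could remove regions. All 185 regions of NeuroD2, WC and WCS on X met the rule. On autosomes the part of such regions that did ran from 45.1% on chromosome 11 to 59.4% on chromosome 14. The X and autosomal shares are therefore of unlike sets and do not show more sharing on X. Chromosome 2 held the most regions, 614, or 8.08% of them, beside 8.24% of NeuroD2 sites. X held the fewest, 185, or 2.43%, beside 1.81% of NeuroD2 sites. Scores on X were also placed differently: the median was 22.6 for WC and 17.0 for WCS, against 12.2 and 10.6 on autosomes outside dense windows, whereas NeuroD2 had 15.6 and 15.9. The autosomal set leaves out regions that MyoD or the chimera held, and dense windows, whereas the X set leaves out neither.

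**Figure D5:**
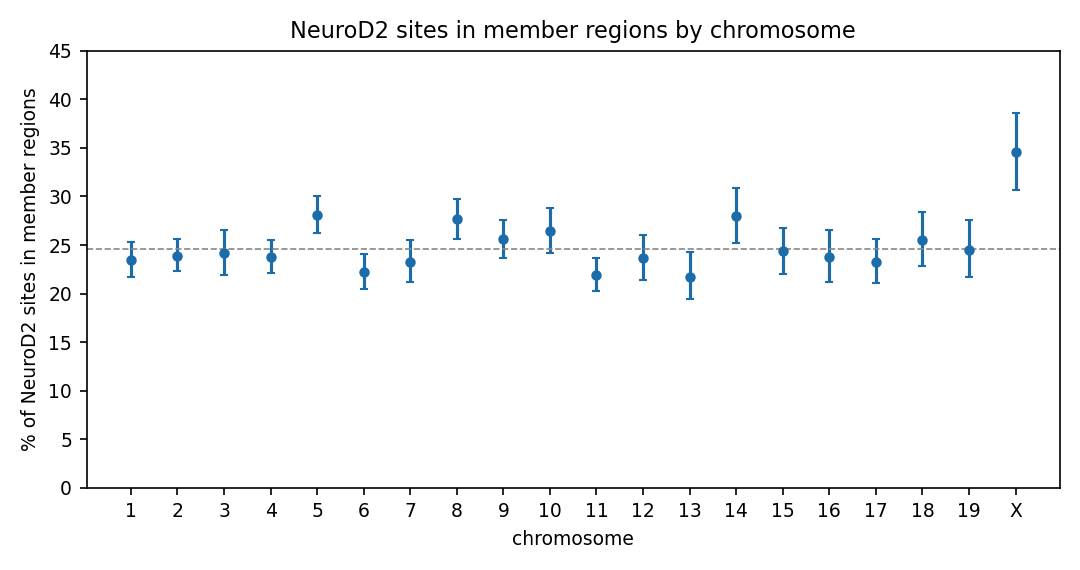
Percentage of the NeuroD2 sites of each chromosome that lie in NeuroD2-mutant regions, with exact 95% intervals for counting error; the dashed line is the share over all chromosomes, 24.6%. Autosomes lie between 21.8% and 28.1%, and X, where the MyoD and chimera lists hold 0 sites, at 34.6%.

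Dense clusters made up a small part of the regions. Of the 7602, 3789 were alone in their window of 100 kb, and the median distance to the next NeuroD2-mutant region was 46805 bases. Windows with 10 or more numbered 8 and held 171 regions. The 5 fullest were on chromosomes 8 and 5: the windows from 19700001 and 19900001 on chromosome 8 held 34 and 28, those from 15100001 and 14900001 on chromosome 5 held 33 and 26, and that from 20000001 on chromosome 8 held 15. In these windows the regions ranked high in the mutants' lists, with median percentiles of 81.7 to 92.5 for WC and 80.2 to 93.2 for WCS, while those for NeuroD2 were 54.3 to 75.2. The window from 15100001 had 0 MyoD and 8 chimera sites among 59 NeuroD2, 54 WC and 58 WCS sites. Dense windows held 708 of the NeuroD2-mutant regions, or 9.31%. The share was 10.8% for regions of every list except MyoD and 13.7% for regions of all 5 lists. Dense windows on autosomes held 673 of the NeuroD2-mutant regions, with medians of 14.2, 15.5 and 13.3. The medians were 15.9, 12.2 and 10.6 in the 6744 autosomal regions outside them. How uniquely reads map to these clusters was not tested.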

How the data were processed

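Binding sites were mapped in P19 cells by chromatin immunoprecipitation and sequencing. Fixation was with 1% formaldehyde (11 min) and fragments were about 150 to 600 bp, per the labels' protocols. CASAVA 1.8.2 and BWA 0.7.5 and the build mm9 are named in the submitters' processing notes. How sites were called, against which control, with which filters and from which pooled libraries is not given in the sources used here. The deposited lists give an interval and a score for each site. No label or header names the unit of the score, and 59 scores are infinite. The scores take few distinct values, 1424 in the NeuroD2 list, and ties share their mean percentile.

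Intervals were merged with Python 3.11.15, numpy 2.4.6, pandas 2.3.3 and scipy 1.17.1, and plots were drawn with matplotlib 3.10.9. A region's score in a list is the highest of its intervals there. The code was tested on simulated data, where 100% of the patterns of 60000 regions came back. The simulated regions lay far apart and the intervals within each always overlapped. This checks the code only and does not cover nearly touching or clustered sites. The regions named are the 10 highest by the lowest of the 3 percentiles, the 3 highest finite scores per list, the 3 largest excesses in each direction, the 5 nearest to MyoD or chimera sites and the 5 fullest windows, none on chromosome 18. Both regions with an infinite score were named after their values were seen. The regions and rules were chosen with earlier results of these data known. The planned E-box, motif and gene results need a genome or annotation of mm9, which was not used here, so no sequence or gene is given.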

Additional observations from a re-analysis of the deposited data

How the results depend on the processing

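Of 10 other settings, 1 of them chosen after seeing the data (X and dense windows removed), list length and the score threshold moved the number of regions most: it was 4175 with the 50% of each list with the highest scores and 3489 with lists of equal length. Of those 3489, 3270 overlapped a region of the full set, and of the 4175, 2912 did. In the other 8 settings the number lay between 6745 and 7743. The share of NeuroD2 sites in the regions was 27.0% with the 50% of highest score and 22.5% where no MyoD or chimera site could lie within 1 kb. With lists of equal length the median percentile of the NeuroD2 sites was 60.7, against 66.2 in the full lists. The share of regions within 10 kb of a MyoD or chimera site was 37.0% with intervals within 500 bases joined, 27.3% with the 50% of highest score, 33.7% with lists of equal length, and 37.1% with dense windows removed, with or without X. The causes were not tested, but both shortened settings also leave fewer MyoD sites, or fewer MyoD and chimera sites, to lie near. The exact intervals cover counting error only. No paired analysis was possible because each group has 1 list, and for the same reason no replicate could be left out. The alternatives on E-boxes were not run. Read depth is unknown, so a region missing from a list may be bound below what that list could detect.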

Other observations

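Among the strongest NeuroD2-mutant regions, several lay near the ends of chromosomes. The named regions drew attention to this, so they cannot count toward it. An end was taken as the outer 1 Mb of what the lists span, counted from the first or last site of any list. Of the 76 regions at or above percentile 95 in all 3 lists, 8 lay there, or 10.5%, but 5 of these 8 are among the 14 named in the text. Without the named regions it was 3 of 62, or 4.84% (exact interval 1.01 to 13.5%), against 94 of the 7526 regions below that level, or 1.25%. At or above percentile 95, 2 of 193 regions of every list except MyoD lay at an end, and 4 of 299 regions of all 5 lists. No test was made, and 3 regions are too few to carry a pattern.

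Chromosome X was likewise more frequent among the strongest regions, with 17 of the 76 at or above percentile 95 and 6 of the 15 at or above percentile 98, against 168 of the other 7526, or 2.23%. The MyoD and chimera lists hold 0 sites there, so X regions of any strength met the rule without that comparison. On autosomes most regions at or above percentile 95 were also held by the chimera or MyoD. The cause of the higher share on X was not tested.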
